A study of Mus musculus with 35 samples.

Results

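The comparison described here is a difference of differences: the effect of parity in luminal Sca1-negative cells minus its effect in basal CD49f-low cells of the mouse mammary gland. It rests on 12 of the 35 samples of the series, chosen by their labelled sorted subpopulation and reproductive history, with 3 samples, labelled as biological replicates, in each of 4 groups: parous luminal Sca1-negative, nulliparous luminal Sca1-negative, parous basal CD49f-low and nulliparous basal CD49f-low. Parous mice were mated at 42 days of age and had 21 days for lactation and 40 days for involution, in which the gland regresses once suckling ends. Nulliparous mice were virgins of matched age. Each sample pooled the 4th mammary glands of 5 mice and held 10000 sorted cells, so values are averages over mice. The luminal gate took cells with high CD24 and no Sca1, and the basal gate cells with low CD24, no Sca1 and low CD49f (integrin alpha 6). No source used here gives the strain.

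The mammary ducts are built of an inner luminal layer, which holds the precursors of the milk-secreting alveolar cells, and an outer basal layer of contractile myoepithelial cells that lies on the basement membrane. An early full-term pregnancy lowers later breast cancer risk in women and in rodents, and lasting changes of gene expression after involution have been sought as its trace. A positive difference below means that the parous minus nulliparous change was more positive in luminal cells than in basal cells, whichever of the cells moved, and a negative difference the opposite.

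RNA was amplified and measured on 1-colour Affymetrix arrays, 1 per sample, as log2 expression of 19937 genes, and the number of arrays limits the precision. A list of 12 pan-luminal markers averaged 10.11 to 10.30 over the 6 luminal samples and 8.67 to 8.87 over the 6 basal samples, and 12 basal markers averaged 6.60 to 7.23 in luminal and 10.08 to 10.26 in basal samples, as the sort labels say. Nulliparous replicate 1 stood apart in both subpopulations: its values had the narrowest spread over genes (SD 1.78 in luminal and 1.79 in basal cells, against 1.84 to 1.89 in the other 10 samples), and array weights of limma gave it 0.58 and 0.39, against 0.81 to 2.07 in the others. The counts of genes that passed, and the difference of each of the genes whose difference passed, were also computed without it. Sorted cells are bulk samples, in which fewer cells of a type and less RNA per cell cannot be told apart.

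The effect of parity differed between luminal Sca1-negative and basal CD49f-low cells for 60 genes (limma, Benjamini-Hochberg adjusted p under 0.05), which is 0.301% of the genes tested. The difference was positive for 37 (0.186%) and negative for 23 (0.115%), and 1602 genes had an unadjusted p under 0.05. The 60 differences had sizes of 0.55 to 3.74 log2 units, with a median size of 1.35, while the median over all genes was -0.03. In each cell type taken alone, parity changed a similar number of genes: 200 in luminal cells (1.00%), of which 132 rose (0.662%) and 68 fell (0.341%), and 193 in basal cells (0.968%), of which 57 rose (0.286%) and 136 fell (0.682%). Of the 200 luminal genes, 13 also passed in basal cells, where 0.968% of all genes passed. Of these 13, 8 went up and 4 down in both cells and 1, Emb, in opposite directions. Across all genes the luminal and basal effects had a Pearson correlation of 0.293. Passing in 1 cell type and not in the other is a weaker statement than a tested difference: of the 367 genes that passed in 1 of the 2 only, the difference itself passed for 52. Among the 37 positive differences, 21 genes fell in basal cells, 11 rose in luminal cells, 1 did both, and 4 passed in neither cell type alone. Among the 23 negative differences, 11 genes fell in luminal cells, 9 rose in basal cells and 3 passed in neither.

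**Figure D1:**
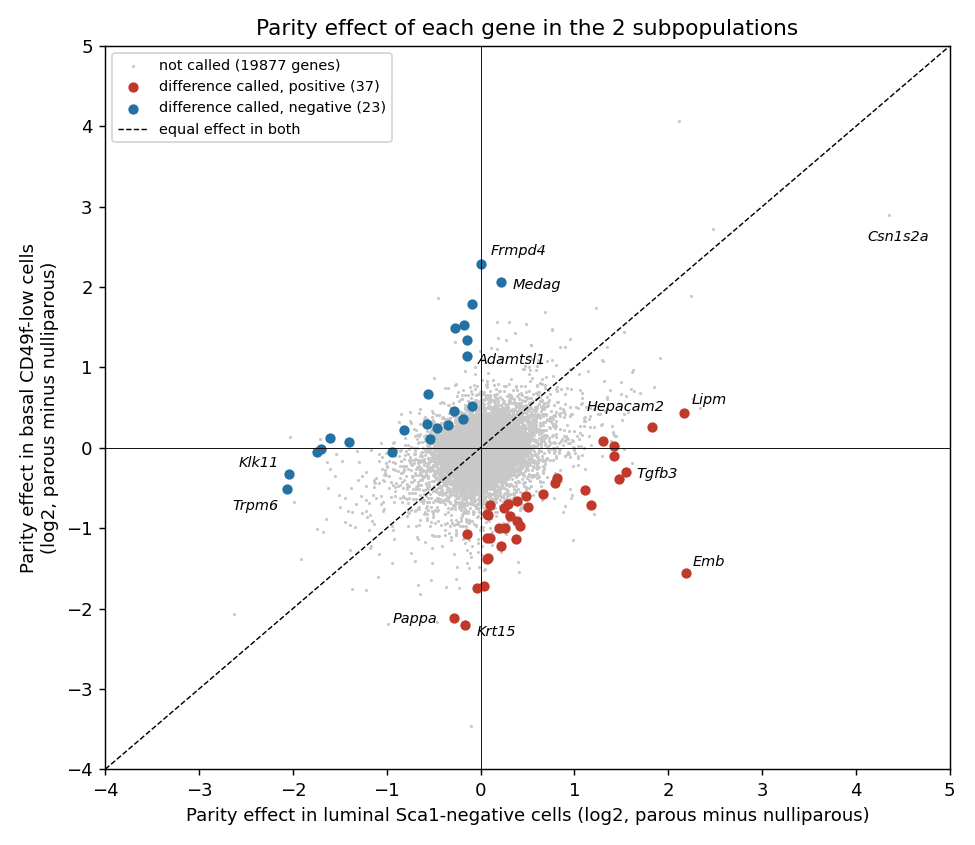
Parity effect of each of 19937 genes in luminal Sca1-negative cells (horizontal, log2 units) and basal CD49f-low cells (vertical, log2 units), with the 60 genes whose difference passed in colour and the dashed line marking equal effects. The coloured genes with the largest effects lie close to one of the 2 axes, except Emb, at 2.19 in luminal and -1.56 in basal cells.

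The calls rest on few samples. Of the 60 genes, 18 kept the call when any single one of the 12 samples was left out, and 5 (Emb, Frmpd4, Nrcam, Klk11 and Medag) kept it when all samples of 1 history and replicate number were left out of every subpopulation together. The labels do not say whether samples that share a number came from the same mice. Without nulliparous replicate 1 in every subpopulation, 95 genes passed, 47 of the 60 among them. Genes that lost the call there included Igfbp7 (adjusted p = 0.0713 in limma), Iftap (0.166), Ogn (0.0565), Tmem47 (0.0619) and Thsd7a (0.0636). In a fit of the 12 samples alone 23 passed, 17 of the 60 among them. Several of the genes described at length below were preferred for keeping their call, a choice made after their values were seen. Others described at length, such as Krt15, Klk10 and Pappa, lost it in some single-sample omissions.

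Emb encodes embigin, a transmembrane glycoprotein of the immunoglobulin family that acts as a partner of monocarboxylate transporters. It had the largest of the 60 differences and was the single gene that changed in opposite directions. In luminal Sca1-negative cells its log2 expression was 7.60, 8.11 and 7.98 in parous samples, against 5.41, 6.11 and 5.61 in nulliparous samples. In basal CD49f-low cells it was 8.64, 8.57 and 8.38 in parous samples, against 9.85, 10.18 and 10.22 in nulliparous samples. Neither pair of groups overlapped: every parous luminal sample was above every nulliparous one, and every parous basal sample below every nulliparous one. The luminal effect was 2.19 (SE 0.32, adjusted p = 0.000196 in limma), a 4.56-fold rise, and the basal effect was -1.56 (SE 0.32, adjusted p = 0.00981), a 2.94-fold fall. Their difference of 3.74 (SE 0.45, adjusted p = 0.000116) had an adjusted p of at most 0.00101 over the 12 single-sample omissions and was 3.71 without any nulliparous replicate 1. Expressed as a distance between the cell types, the luminal minus basal value of Emb was -0.63 log2 units in parous mice, against -4.38 in nulliparous mice.

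The 250 bases before the annotated start of Emb are shown because no other of the 60 genes changed in opposite directions. They lie at chr13:117220323-117220572 on the plus strand (RefSeq, GRCm38.p6), with the 5′ end first.
Emb: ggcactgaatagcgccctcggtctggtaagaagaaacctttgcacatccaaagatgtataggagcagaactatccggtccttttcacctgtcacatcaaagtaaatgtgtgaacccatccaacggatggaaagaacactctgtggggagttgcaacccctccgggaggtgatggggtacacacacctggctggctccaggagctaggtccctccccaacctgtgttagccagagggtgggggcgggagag
Each promoter window was searched on both strands for the letters of a TATA box (TATAAA), a STAT site (TTCNNNGAA) and an AP-1 site (TGANTCA), which would be set in capitals. The Emb window held none of them. Over all 32851 windows of this length in the mouse table, 12.4% held the first, 7.02% the second and 6.75% the third.

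Among the 11 genes that rose in luminal cells and passed the difference were secreted growth factor and matrix genes. Tgfb3, the TGF-beta ligand known from milk stasis and the first phase of involution in mice, had 9.74, 9.14 and 8.81 in parous luminal samples, against 8.09, 7.56 and 7.40 in nulliparous luminal samples. In basal cells it had 7.72, 7.63 and 7.56 in parous samples and 7.72, 8.03 and 8.07 in nulliparous samples. All 3 parous luminal samples were above all 9 others. The luminal effect was 1.54 (SE 0.22, a 2.92-fold rise), the basal effect -0.30 (SE 0.22, adjusted p = 0.7) and the difference 1.85 (SE 0.31, adjusted p = 0.00431).

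Igfbp5, which encodes a secreted IGF-binding protein raised in the involuting gland, had 11.04, 10.67 and 10.66 in parous luminal samples, against 10.13, 9.28 and 9.63 in nulliparous luminal samples. Its basal samples had 10.43, 10.43 and 10.32 in parous and 11.17, 11.08 and 10.52 in nulliparous mice. The luminal groups were apart by 1.11 (SE 0.21, adjusted p = 0.00466), and the basal effect of -0.53 (SE 0.21) did not pass, with an adjusted p of 0.341. The difference was 1.64 (SE 0.30, adjusted p = 0.0115). Igfbp7, a related secreted binding protein, had a difference of 1.89 (SE 0.42, adjusted p = 0.0423) that held in 3 of the 12 single-sample omissions, with the highest adjusted p of 0.142 without parous luminal replicate 2.

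Itga8, the integrin alpha 8 subunit that pairs with integrin beta 1, had 9.19, 9.03 and 8.69 in parous luminal samples, against 8.03, 7.09 and 7.53 in nulliparous luminal samples. In basal cells it had 8.25, 8.27 and 8.19 in parous and 8.05, 8.53 and 8.43 in nulliparous samples. All 3 nulliparous luminal samples were below all 9 others. The luminal effect was 1.42 (SE 0.20) and the difference 1.53 (SE 0.28, adjusted p = 0.0113).

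Lipm, a member of the acid lipase family known from differentiating epidermis, had 8.02, 6.87 and 7.23 in parous luminal samples and 5.53, 5.02 and 5.07 in nulliparous luminal samples. Its basal samples lay between 4.30 and 5.12 in both histories. The luminal effect of 2.17 (SE 0.21, adjusted p = 1.9e-07) was a 4.49-fold rise, and the difference was 1.73 (SE 0.29, adjusted p = 0.0045). Tnc, which encodes the matrix glycoprotein tenascin C, rose by 1.48 in luminal cells (SE 0.25), with 8.14 ± 0.35 in the 3 parous and 6.66 ± 0.08 in the 3 nulliparous samples (mean ± SD). Its difference of 1.86 (SE 0.35, adjusted p = 0.013) was lost only without parous luminal replicate 2, with an adjusted p of 0.061, among the single-sample omissions.

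Hepacam2, an adhesion gene of the immunoglobulin family, rose by 1.83 in luminal cells (SE 0.23), with 6.54, 7.03 and 7.06 in parous and 5.08, 5.03 and 5.04 in nulliparous samples. The difference from basal cells was 1.57 (SE 0.32, adjusted p = 0.0238) and held in 6 of the 12 omissions. Id2, an inhibitor of basic helix-loop-helix factors that mice need for alveolar growth in pregnancy, rose by 1.42 in luminal cells (SE 0.20), with a difference of 1.40 (SE 0.29, adjusted p = 0.0245) that held in 5 of the 12 omissions. Krt5, the basal keratin, also rose in luminal cells, with 8.04, 8.03 and 7.92 in parous and 6.10, 7.05 and 6.92 in nulliparous samples. In basal cells it had 11.71, 11.53 and 11.44 in parous and 11.28, 11.51 and 11.62 in nulliparous samples, and the difference was 1.21 (SE 0.25, adjusted p = 0.0294, holding in 5 of the 12 omissions). Beside these rises, the mean level of 12 basal markers in luminal cells was 7.23, 7.02 and 7.06 in parous samples, against 6.61, 6.82 and 6.60 in nulliparous samples, without overlap. Of the 12, 3 rose in luminal cells (0.662% of all genes), Krt5, Cnn1 by 1.21 (SE 0.20) and Myh11 by 0.93 (SE 0.19). The other 9 did not pass there, among them Krt14 (0.50, SE 0.22) and Acta2 (0.50, SE 0.17), and the list median was 0.39. A list of 17 contractile genes had a luminal median of -0.08, and 3 of its members rose in luminal cells (0.662% of all genes) while none fell. Both lists hold Cnn1 and Myh11. Of the 11 genes that rose in luminal cells, 8 had a higher mean in basal than in luminal cells of nulliparous mice, as did 40.0% of all genes. Low nulliparous luminal values helped these 11 genes to pass, which favours a high count, so the count is descriptive only. Whether basal cells in the luminal gate take part in these rises was not tested.

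**Figure D2:**
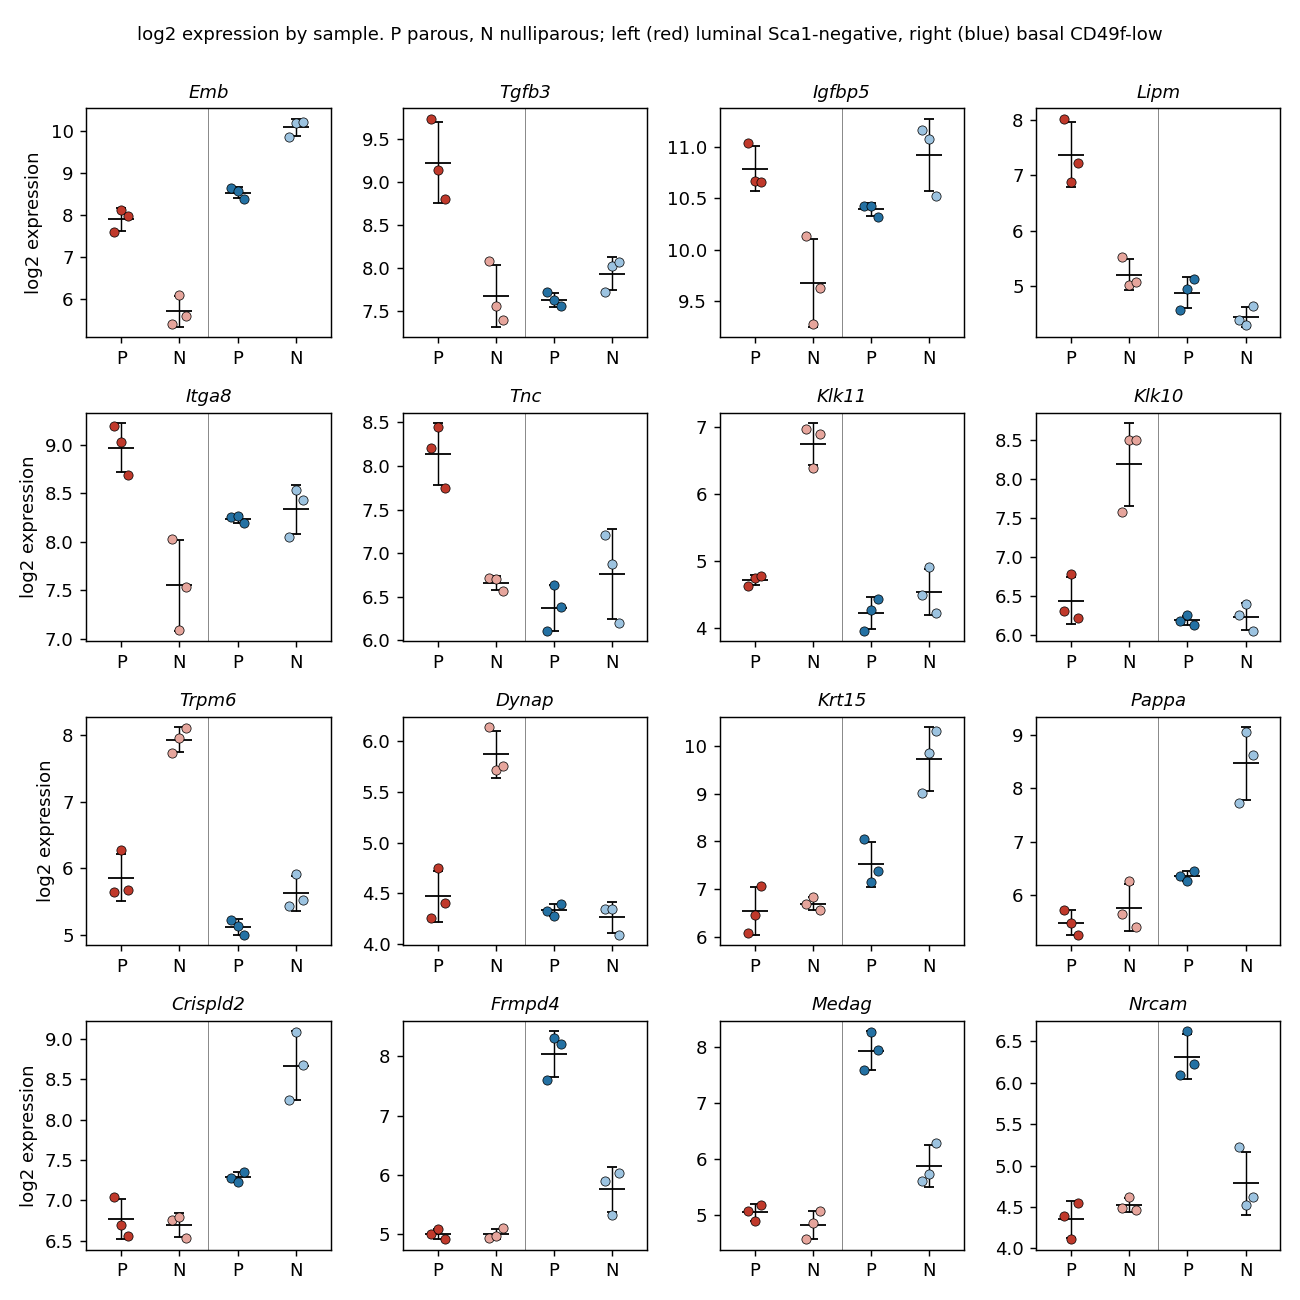
log2 expression of 16 genes in each of the 12 samples: in every panel the left pair (red) is luminal Sca1-negative and the right pair (blue) basal CD49f-low, with parous (P) left of nulliparous (N), points for samples, and a bar with whiskers for the mean and SD (n = 3). Each axis has its own range. Emb moves in both pairs, Tgfb3, Lipm, Klk11 and Trpm6 mainly in the luminal pair, and Krt15, Frmpd4, Medag and Nrcam mainly in the basal pair.

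The 11 genes that fell in luminal cells and passed the difference included a pair of neighbouring kallikrein-related peptidase genes, which encode secreted serine proteases. Klk11 had 4.62, 4.74 and 4.77 in parous luminal samples, against 6.96, 6.39 and 6.89 in nulliparous luminal samples. In basal cells it had 3.95, 4.26 and 4.42 in parous samples and 4.49, 4.90 and 4.22 in nulliparous samples. Parous luminal samples thus fell to the upper end of the basal range. The luminal effect was -2.04 (SE 0.18, adjusted p = 7.63e-08, a 4.11-fold fall), and the difference was -1.71 (SE 0.25, adjusted p = 0.000806, at most 0.00539 over the single-sample omissions).

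Klk10 had 6.31, 6.78 and 6.22 in parous luminal samples, against 7.57, 8.49 and 8.49 in nulliparous luminal samples. Its basal samples lay between 6.05 and 6.40 in both histories. The difference was -1.69 (SE 0.34, adjusted p = 0.0203). It held in 6 of the 12 single-sample omissions, with the highest adjusted p of 0.075 without nulliparous luminal replicate 2, and was -2.01 without any nulliparous replicate 1.

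Both start sites lie on the plus strand of chromosome 7 in GRCm38.p6, and their 250 upstream bases from RefSeq are shown because the 2 genes fell together. The Klk10 window is chr7:43780804-43781053 and the Klk11 window, the first of 2 listed for that gene, is chr7:43774367-43774616.
Klk10: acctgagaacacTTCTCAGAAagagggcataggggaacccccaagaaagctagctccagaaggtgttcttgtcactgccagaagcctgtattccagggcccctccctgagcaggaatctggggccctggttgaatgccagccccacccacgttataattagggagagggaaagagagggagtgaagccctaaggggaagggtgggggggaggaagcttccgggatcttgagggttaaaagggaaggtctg
Klk11: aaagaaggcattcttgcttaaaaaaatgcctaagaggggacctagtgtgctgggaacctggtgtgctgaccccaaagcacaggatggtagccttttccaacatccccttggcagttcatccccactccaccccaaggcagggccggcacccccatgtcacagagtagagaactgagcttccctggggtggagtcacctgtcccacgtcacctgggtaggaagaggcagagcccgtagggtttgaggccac
Capitals mark the only match to the 3 searched motifs, STAT letters in the Klk10 window from -238 to -230, counted from the start with -1 as the base before it. The Klk11 window held no match.

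Trpm6, a magnesium channel with a kinase domain, had 5.64, 6.27 and 5.67 in parous luminal samples, against 7.73, 7.96 and 8.10 in nulliparous luminal samples. In basal cells it had 5.23, 5.13 and 5.00 in parous and 5.43, 5.92 and 5.53 in nulliparous samples. The luminal effect was -2.07 (SE 0.21, a 4.19-fold fall), the basal effect -0.51 (SE 0.21, adjusted p = 0.346) and the difference -1.56 (SE 0.29, adjusted p = 0.013). Dynap, a dynactin-associated membrane protein gene, had 4.26, 4.75 and 4.41 in parous and 6.14, 5.72 and 5.76 in nulliparous luminal samples. Its basal samples stayed between 4.09 and 4.40, and the difference was -1.47 (SE 0.24, adjusted p = 0.00431). Cavin2, a coat protein of caveolae, fell by 1.60 in luminal cells (SE 0.22), with 5.65 to 6.13 in parous and 7.21 to 7.72 in nulliparous samples, while its basal samples were all between 8.33 and 8.81. Its difference was -1.73 (SE 0.32, adjusted p = 0.0113). Klk11, Klk10, Trpm6 and Dynap were higher in luminal than in basal cells of nulliparous mice, and Cavin2 was lower. Alox12e, a lipoxygenase gene, and Tmem47, a junction-associated membrane protein gene, fell by 1.70 (SE 0.27) and 0.82 (SE 0.17) in luminal cells, and their differences of -1.68 and -1.03 (adjusted p = 0.0487 each) held in 2 and 1 of the 12 omissions. Nup62cl, Psg20, Sh3rf2 and Susd4 complete the class.

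The largest class of the 60 genes was the 21 that fell in basal cells, with a median basal effect of -1.08 and a median luminal effect of 0.10. Krt15, a keratin of basal and progenitor cells in several epithelia, had 8.05, 7.14 and 7.37 in parous basal samples, against 9.01, 9.86 and 10.32 in nulliparous basal samples. In luminal cells it had 6.08, 6.46 and 7.07 in parous and 6.69, 6.84 and 6.56 in nulliparous samples, where the groups overlapped. The basal effect was -2.21 (SE 0.31, a 4.62-fold fall) and the luminal one -0.16 (SE 0.31). The difference of 2.05 (SE 0.44, adjusted p = 0.0348) held in 3 of the 12 single-sample omissions, with the highest adjusted p of 0.112 without parous basal replicate 2, and was 2.40 (adjusted p = 0.00497) without any nulliparous replicate 1.

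Pappa, a secreted metalloprotease that frees IGF by cutting IGF-binding proteins, had 6.35, 6.26 and 6.45 in parous basal samples, against 7.72, 9.05 and 8.63 in nulliparous basal samples. Its luminal samples lay between 5.25 and 6.25. The difference of 1.84 (SE 0.41, adjusted p = 0.0462) held in 2 of the 12 omissions, with the highest adjusted p of 0.175 without nulliparous basal replicate 2, and was 2.15 (adjusted p = 0.0145) without any nulliparous replicate 1. Sostdc1, a secreted antagonist of BMP and Wnt signals, fell by 1.75 in basal cells (SE 0.25), with 6.44, 6.36 and 5.95 in parous and 7.71, 7.82 and 8.46 in nulliparous samples. Its luminal effect was -0.04 (SE 0.25), with overlapping groups, and the difference of 1.71 (SE 0.35, adjusted p = 0.0238) held in 7 of the 12 omissions.

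Of the basal falls, 5 kept their difference in every single-sample omission. Crispld2, a secreted protein gene, had 7.28, 7.23 and 7.35 in parous basal samples, against 8.24, 9.09 and 8.68 in nulliparous basal samples, and a difference of 1.46 (SE 0.26, adjusted p = 0.00952). The other four lay outside the naming rule and were picked after their values were seen. Elovl4, an elongase of very long fatty acids, had 6.31, 6.16 and 5.99 in parous and 7.29, 7.39 and 7.45 in nulliparous basal samples, and 4.01 to 4.52 in luminal cells (difference 1.44, SE 0.26, adjusted p = 0.00939). Acsl4, an acyl-CoA synthetase that prefers arachidonic acid, fell by 1.00 in basal cells (SE 0.16), with a difference of 1.19 (SE 0.22, adjusted p = 0.0115). Pign, an enzyme of GPI anchor synthesis, had a difference of 1.22 (SE 0.23, adjusted p = 0.013).

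Large2, a glycosyltransferase that extends the sugar chain through which dystroglycan binds laminin, had 6.61, 6.93 and 6.61 in parous basal samples, against 7.84, 7.83 and 7.39 in nulliparous basal samples. Its luminal samples had 6.89, 6.77 and 6.54 in parous and 6.45, 6.18 and 6.31 in nulliparous mice, and the difference was 1.39 (SE 0.21, adjusted p = 0.00142). Dag1, which encodes dystroglycan, and the laminin chain gene Lama1 fell in basal cells too (Dag1 also lies outside the naming rule), by 0.71 (SE 0.13) and 0.75 (SE 0.15). Their differences of 0.80 (SE 0.18, adjusted p = 0.0487) and 1.00 (SE 0.22, adjusted p = 0.0421) held in 1 and 2 of the 12 omissions. Fbln2, a basement membrane and matrix protein gene, had 6.81, 7.07 and 7.11 in parous and 7.93, 8.61 and 8.56 in nulliparous basal samples (difference 1.45, SE 0.28, adjusted p = 0.0195, holding in 7 of the 12 omissions). Beside these falls, 12 fibroblast markers averaged 6.22, 6.26 and 6.11 in parous basal samples, against 6.86, 6.80 and 6.40 in nulliparous basal samples, and 1 of the 12, Lum, fell there by 1.70 (SE 0.40, adjusted p = 0.0339). Of the 21 genes, 3 had a higher mean in nulliparous stromal than in nulliparous basal samples, as did 41.3% of all genes. High nulliparous basal values helped these 21 genes to pass, which favours a low count, so the count is descriptive only. A part of stromal cells in these falls was not tested.

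Eya1, a transcription cofactor gene, had 5.60, 4.98 and 5.80 in parous and 7.14, 7.23 and 7.18 in nulliparous basal samples, and its difference of 1.75 (SE 0.37, adjusted p = 0.0308) held in 4 of the 12 omissions. Iftap, a gene linked to intraflagellar transport, had a difference of 1.51 (SE 0.34, adjusted p = 0.0462) that held in 2. The remaining basal falls were Abat, Apoc1, Celf2, Ercc5, Glb1l3, Kremen1, Malt1 and Zfhx4.

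In 7 genes the difference passed although neither cell type did alone, with values of opposite sign in luminal and basal cells. They are named after their values were seen, except Zdhhc2. Nr4a3, an orphan nuclear receptor gene, had 0.50 in luminal and -0.74 in basal cells, and Sulf1, a sulfatase of heparan sulfate, had 0.66 and -0.57. Bcam, a laminin receptor gene, had 0.48 and -0.60, and Ramp1, part of the CGRP receptor, 0.39 and -0.66. With a negative difference, Zdhhc2, a palmitoyltransferase gene, had -0.56 and 0.67, Zkscan2 -0.34 and 0.29, and F930015N05Rik -0.28 and 0.46. The adjusted p of these 7 differences lay between 0.038 and 0.049.

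The 9 genes that rose in basal cells included those with the firmest negative differences. Frmpd4, a scaffold protein gene known from synapses, had 7.60, 8.31 and 8.20 in parous basal samples, against 5.90, 5.33 and 6.04 in nulliparous basal samples. Its 6 luminal samples lay between 4.93 and 5.10. The basal effect was 2.28 (SE 0.22, adjusted p = 2.86e-07, a 4.87-fold rise), the luminal effect 0.01 (SE 0.22) and the difference -2.27 (SE 0.31, adjusted p = 0.000282).

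Medag, a cytosolic protein gene known from adipocyte formation, had 7.59, 8.28 and 7.96 in parous basal samples, against 5.61, 5.73 and 6.30 in nulliparous basal samples, and 4.57 to 5.19 in luminal cells. The difference was -1.84 (SE 0.27, adjusted p = 0.000806). Nrcam, an adhesion molecule of the L1 family known from neurons, had 6.09, 6.62 and 6.23 in parous basal samples, against 5.22, 4.52 and 4.62 in nulliparous basal samples. Its luminal samples were all between 4.11 and 4.62, at the level of 2 of the 3 nulliparous basal samples, and the difference was -1.70 (SE 0.23, adjusted p = 0.000282). Adamtsl1, a secreted relative of the ADAMTS proteases without their catalytic part, had 7.15, 7.37 and 6.87 in parous and 5.91, 6.13 and 5.93 in nulliparous basal samples (difference -1.28, SE 0.23, adjusted p = 0.00933).

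Cd109, a GPI-anchored protein that binds TGF-beta, rose by 1.49 in basal cells (SE 0.25), with 7.72, 7.45 and 7.39 in parous and 5.42, 6.17 and 6.52 in nulliparous samples. Its difference of -1.76 (SE 0.36, adjusted p = 0.0238) held in 7 of the 12 omissions. Ogn, a small leucine-rich proteoglycan, had 6.79, 7.56 and 6.31 in parous and 5.05, 4.93 and 5.33 in nulliparous basal samples, and its difference of -1.87 (SE 0.42, adjusted p = 0.0487) held in 1 of the 12. Ogn and Medag were far higher in stromal cells, at 10.90 and 9.25 in parous and 10.86 and 9.17 in nulliparous samples on average. Of the 9 genes, 8 had a higher mean in stromal than in basal cells of nulliparous mice, beside 41.3% of all genes. Low nulliparous basal values helped these 9 genes to pass, which favours a high count, so the count is descriptive only. The fibroblast list had lower values in the parous basal samples, given above, where these genes were higher, and a part of stromal cells in the rises was not tested. Thsd7a, a thrombospondin-domain gene, rose by 1.34 (SE 0.21, difference -1.49, SE 0.30, adjusted p = 0.0244), and Gm94 and Iapp complete the class.

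The same difference can be read as the change in the distance between the cell types. Because the distances come from the same 12 samples, they describe the 60 genes and add no evidence. Of the 37 genes with a positive difference, 10 were lower in luminal than in basal cells of parous mice (6.26% of all genes), against 29 in nulliparous mice (7.55%). The median distance of the 37 was -0.13 log2 units in parous and -1.26 in nulliparous mice, where the medians of all genes were 0.003 and 0.052. Of these 37, 12 were higher in luminal cells of parous mice (7.02% of all genes), against 2 in nulliparous mice (6.72%). Of the 23 genes with a negative difference, 1 was higher and 13 were lower in luminal cells of parous mice, against 12 higher and 5 lower in nulliparous mice. The nulliparous distance was also measured in arrays that do not enter the difference: 30 of the 37 genes were lower in luminal Sca1-positive than in basal CD49f-high cells of nulliparous mice (8.87% of all genes), with a median of -1.38. Of the 23 genes with a negative difference, 7 were lower there, beside the same 8.87% of all genes. Another 1 was higher, a direction whose share over all genes is not given here. Their median was -0.06, against a median of 0.33 in the nulliparous samples that enter the difference.

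The like difference in the other pair of sorted cells, luminal Sca1-positive minus basal CD49f-high, was measured in 11 other arrays of 3 parous and 3 nulliparous luminal samples and of 2 parous and 3 nulliparous basal samples. The mice may be the same, and the CD49f-high samples came from 2000 cells. In that pair 579 genes passed (2.90%), among them 16 of the 60, all with the same sign. In sign alone, 33 of the 37 positive and 18 of the 23 negative genes were alike. Over all genes the sign was alike for 49.5% of those with a positive and 60.7% of those with a negative difference.

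Emb again moved in opposite directions: 1.91 in luminal Sca1-positive cells (SE 0.32, adjusted p = 0.00114) and -1.23 in basal CD49f-high cells (SE 0.36, adjusted p = 0.0287), a difference of 3.13 (SE 0.48, adjusted p = 0.000402). Krt15 (2.82, SE 0.46), Acsl4 (2.16, SE 0.23), Hepacam2 (2.17, SE 0.34), Nrcam (-2.04, SE 0.24) and Frmpd4 (-1.26, SE 0.32) passed there as well. By class, 9 of the 21 basal falls, 3 of the 9 basal rises, 2 of the 11 luminal rises and none of the 11 luminal falls passed in the other pair. Tgfb3 (0.34, SE 0.32), Igfbp5 (0.26, SE 0.32), Lipm (0.40, SE 0.31), Itga8 (0.03, SE 0.30), Klk10 (-0.24, SE 0.36), Klk11 (-0.58, SE 0.27) and Trpm6 (0.44, SE 0.31) did not pass there. Medag had the other sign, 0.81 (SE 0.29, adjusted p = 0.133), and fell by 0.67 in basal CD49f-high cells (adjusted p = 0.0446). Id2 also had the other sign there, -1.02 (SE 0.30, adjusted p = 0.0651). Of the luminal falls, Dynap averaged 4.60, Trpm6 5.60 and Alox12e 5.74 in nulliparous Sca1-positive cells, against 5.87, 7.93 and 7.16 in nulliparous Sca1-negative cells. In nulliparous basal CD49f-low cells, which enter the main difference, they averaged 4.26, 5.63 and 5.60. Whether low levels bear on either difference was not tested. Such levels of the other luminal falls are not given here. Whether the difference itself differs between the pairs was not tested.

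**Figure D3:**
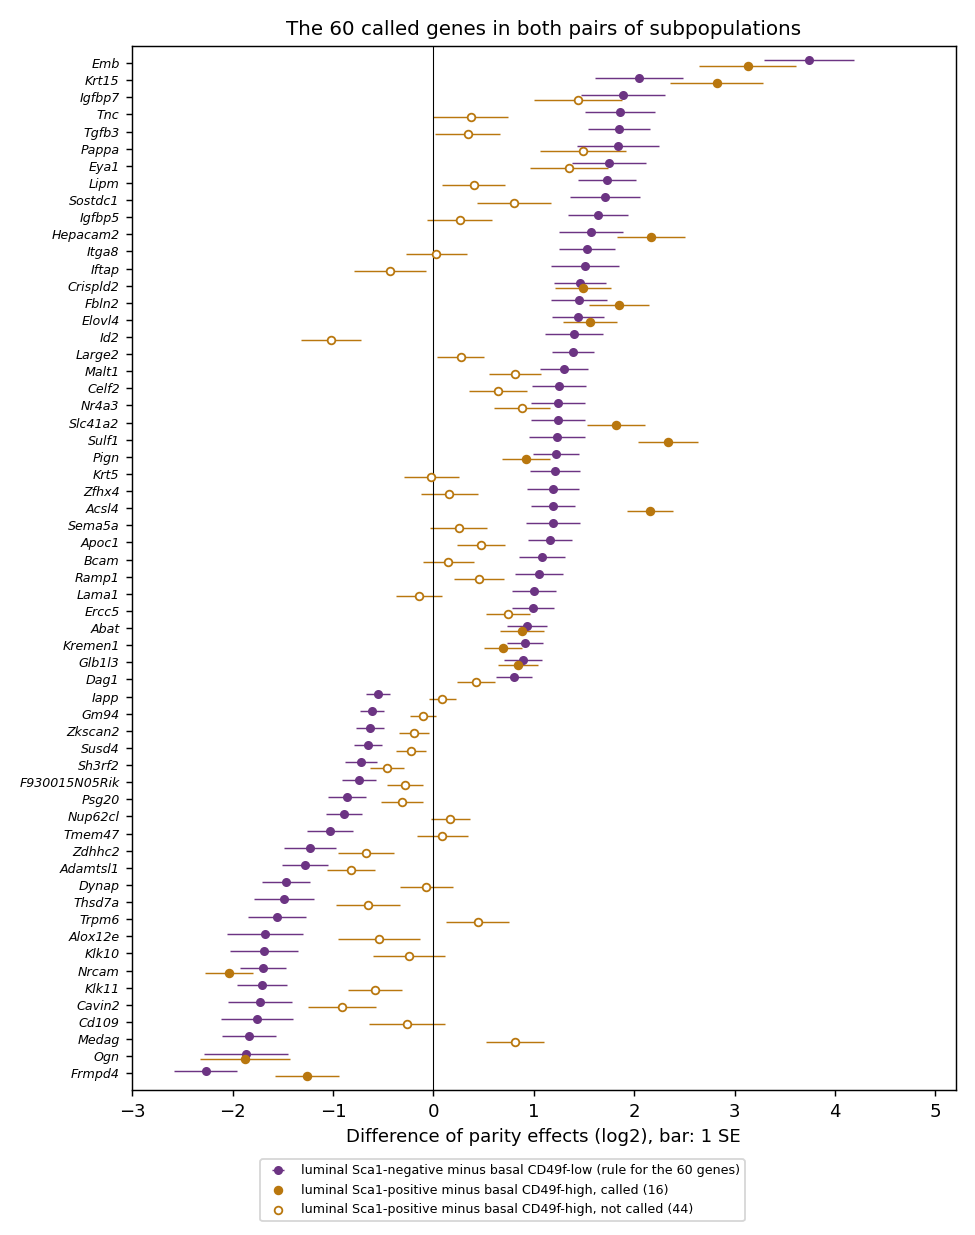
Difference of parity effects (log2 units, bars 1 SE) of the 60 genes in luminal Sca1-negative minus basal CD49f-low cells (purple, by which the genes were chosen) and in luminal Sca1-positive minus basal CD49f-high cells (orange, filled where it passed). The 16 filled points lie on the same side of 0 as their purple partners.

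By pathway, the members that passed were spread over few lists: 8 of 37 lists held any, with 14 of the 60 genes. Beside the counts of each list, 0.186% of all genes passed with a positive and 0.115% with a negative difference. The lists were chosen with earlier results of these data known, so their counts are descriptive. Members that did not pass are named for their role in the pathway. Of 17 genes of the IGF axis, 3 had a positive difference that passed (Igfbp7, Pappa and Igfbp5) and 14 did not pass, with a median of 0.43 beside -0.03 for all genes. Its ligands and receptors gave small values, Igf1 0.31, Igf2 -0.02 and Igf1r 0.21. Within basal cells 4 of the 17 fell (0.682% of all genes), Pappa, Igfbp3, Igfbp2 and Igfbp4. Within luminal cells 3 rose (0.662% of all genes), Igfbp7, Igfbp5 and the insulin receptor substrate gene Irs1. Igfbp3 had a difference of 1.04 (adjusted p = 0.465).

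Of 18 genes of the TGF-beta pathway the ligand Tgfb3 passed, with a median of 0.02 over the list, while the other ligands Tgfb1 (0.08) and Tgfb2 (-0.71) and the receptors Tgfbr1 (-0.14) and Tgfbr2 (0.02) did not. Of 20 genes of the BMP pathway the antagonist Sostdc1 and the target Id2 passed (median 0.01). The target genes Id1 (0.33) and Id3 (0.20) and the ligand Bmp4 (0.01) did not. Of 20 matricellular and proteoglycan genes Tnc and Fbln2 passed with positive and Ogn with a negative difference, and the median was 0.38 beside -0.03 for all genes. Within luminal and basal cells the list had median effects of 0.06 and -0.33, where the medians of all genes were -0.036 and 0.0. Of 16 keratins Krt15 and Krt5 passed, and the luminal keratins Krt8 (-0.14) and Krt18 (0.10) and the basal keratin Krt14 (0.53) did not.

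Of 22 basement membrane and integrin genes Lama1 passed (median -0.01), and none of 22 collagens did (median 0.14), where 3 had an unadjusted limma p under 0.05 and none passed with array weights. Of 16 kallikreins and serpins Klk10 and Klk11 passed (median -0.17). Serpinb11, a serine protease inhibitor gene of that list, had a larger difference of 3.37 that did not pass (SE 0.98, adjusted p = 0.209), and it fell by 3.47 in basal cells (SE 0.69). Other kallikreins had smaller values that did not pass, Klk6 at -0.28, Klk7 at -0.30 and Klk8 at -0.34.

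No member passed in the lists of Notch genes (20, median -0.09), Wnt ligands, receptors and modulators (25, median -0.05), Wnt targets (16, median 0.27) or proliferation genes (29, median -0.37) by limma at adjusted p under 0.05. At an unadjusted p under 0.05 these lists held 2, 5, 5 and 2 genes, and with array weights 0, 1, 1 and 0 passed. The proliferation list averaged 5.87, 5.67 and 5.63 in parous luminal samples, against 6.01, 6.34 and 6.92 in nulliparous luminal samples, without overlap, with a wide spread among the nulliparous ones. In basal cells it was also lower on average, at 5.74, 5.65 and 5.79 in parous and 5.76, 5.99 and 6.43 in nulliparous samples, with overlap. The median parity effect of the list was -0.66 in luminal and -0.34 in basal cells. Of the proliferation genes, Birc5, an inhibitor of apoptosis active in mitosis, had a difference of -1.12 (adjusted p = 0.405). Lgr5 had 0.46, Axin2 0.05, Notch1 0.29 and Jag1 0.84, none of which passed.

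**Figure D4:**
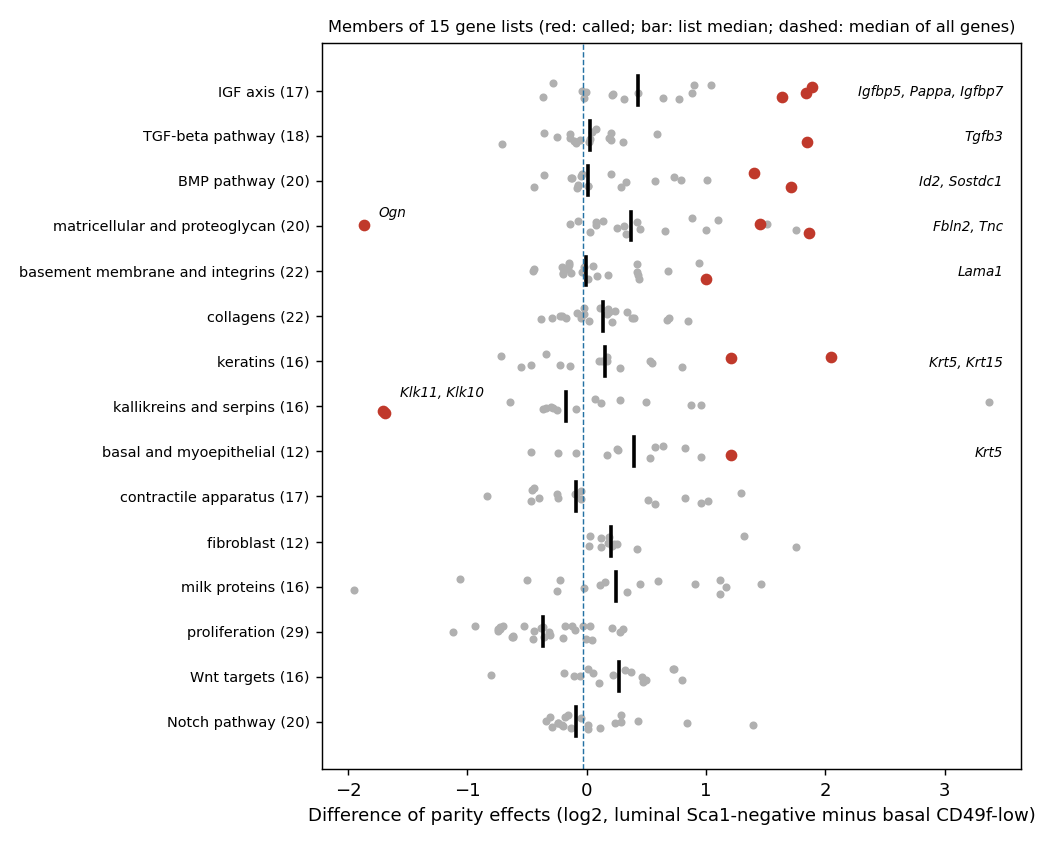
Difference of parity effects (log2 units) of each member of 15 gene lists, with the number of measured members in brackets, red points for the genes that passed, black bars for list medians and a dashed line for the median of all genes. The 3 red points of the IGF axis lie between 1.64 and 1.89, and no point is red among milk proteins, fibroblast markers or proliferation genes.

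Milk proteins, the best known trace of lactation, did not pass in the difference. Of 16 measured, 3 rose in luminal cells (Csn1s2a, Btn1a1 and Xdh), beside 0.662% of all genes, and 3 in basal cells (Csn1s2a, Csn2 and Csn1s1), beside 0.286%. None passed the difference (median 0.24, range -1.95 to 1.46), although 6 had an unadjusted limma p under 0.05 and 3 passed with array weights. Csn1s2a, an alpha-S2 casein gene, rose by 4.36 in luminal and 2.89 in basal cells, a difference of 1.46 (SE 0.56, adjusted p = 0.465). Btn1a1, a coat protein of the milk fat globule, rose by 1.57 in luminal cells and had 0.45 in basal cells, and its difference was 1.12 (SE 0.27, adjusted p = 0.0599). Csn1s1, an alpha-S1 casein gene, had 9.82, 9.98 and 9.99 in parous basal samples, against 5.32, 7.31 and 4.95 in nulliparous basal samples. With this spread its difference of -1.95 had an SE of 1.21 and an adjusted p of 0.742. Named after their values were seen, the other genes that changed one way in both cells included the acute phase gene Hp (2.24 in luminal and 1.89 in basal cells), the clock repressor gene Nr1d1 (1.05 and 0.92) and, downwards, Nrep (-0.95 and -1.43), with differences of 0.35, 0.13 and 0.49 that did not pass.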

How the data were processed

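Per the labels' protocols, RNA of sorted mouse mammary cells had been amplified and hybridised to 1-colour Affymetrix arrays. The submitters' processing notes name affy; which version, normalization and build were used is not given in the sources used here. Per the deposited table, the authors gave 1 value per probe set on a log2 scale, which runs between 1.74 and 13.28. Of 34760 probe sets, 21640 had a single gene symbol in the supplied platform annotation, and 1321 with several and 11799 with none were left out. For 954 genes with several probe sets the one with the highest mean was used, which left 19937 genes.

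All 35 samples were fitted as 12 group means with limma 3.58.1 (lmFit, eBayes with trend = TRUE) in R 4.3.3, so the groups share 1 estimate of the spread (23 residual degrees of freedom), with Benjamini-Hochberg adjustment across the 19937 genes. SE is that of the moderated fit. The fit was tested on simulated data. Named genes are, among genes that passed the difference, the 15 largest in each direction without predicted or clone names, up to 4 members per direction of each gene list, genes that changed in opposite directions, and a panel of mammary genes. The genes, lists and panel were chosen with earlier results of these data known. Mean levels of marker lists are given per sample, with no test of any list. Same-numbered luminal and basal samples correlated in their deviations from group means at 0.05 to 0.302, against -0.282 to 0.072 for other numbers. All 12 samples correlated best with their own number, but some of these values were below 0.1 and the labels name no pairs. Replicate numbers were therefore not taken as pairs in the main fit, and blocks were alternatives. Of the 60 genes, 41 had a promoter window in the RefSeq table. Alternatives were no variance trend, array weights, quantile normalization, leaving out the dimmest 30% of genes by mean, the mean of probe sets, the compared groups alone, blocks, a threshold of 0.01 and omitted samples. Omitting all samples of 1 history and replicate number, and a block on history and number in the compared groups alone, were added after seeing the data.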

Additional observations from a re-analysis of the deposited data

Results flagged for a closer look

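The 60 genes with a tested difference of parity effects between luminal Sca1-negative and basal CD49f-low cells, and the 579 between luminal Sca1-positive and basal CD49f-high cells, stand here because the difference itself passed its test. Of the 18 genes that keep the call without any single sample, 14 come under the naming rule and would repay a second look first: Emb (3.74), Tgfb3 (1.85), Lipm (1.73), Igfbp5 (1.64), Itga8 (1.53) and Crispld2 (1.46) on the positive side, and Frmpd4 (-2.27), Medag (-1.84), Cavin2 (-1.73), Klk11 (-1.71), Nrcam (-1.70), Trpm6 (-1.56), Dynap (-1.47) and Adamtsl1 (-1.28) on the negative side, all in log2 units. The other four, Elovl4, Large2, Acsl4 and Pign, are described above.

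The other named positive differences lost the call without at least 1 single sample. They were Krt15 (2.05), Igfbp7 (1.89), Tnc (1.86), Pappa (1.84), Eya1 (1.75), Sostdc1 (1.71), Hepacam2 (1.57), Iftap (1.51), Fbln2 (1.45), Id2 (1.40), Krt5 (1.21) and Lama1 (1.00). The like negative ones were Ogn (-1.87), Cd109 (-1.76), Klk10 (-1.69), Alox12e (-1.68), Thsd7a (-1.49), Zdhhc2 (-1.23) and Tmem47 (-1.03).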

How the results depend on the processing

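No difference that passed changed sign under an alternative that tested it (50 of the 60 were tested with dim genes left out, and all 60 otherwise), but the number that passed varied. At an adjusted p under 0.01, 12 differences passed, with 93 luminal and 88 basal parity effects and 195 differences in the other pair of sorted cells. With array weights, which count nulliparous replicate 1 least, the numbers were 205 differences, 614 luminal, 544 basal and 246 in the other pair. In fits of the compared groups alone, 23 differences passed and 110 in the other pair. Omitting single samples, or all samples of 1 history and replicate number, gave 9 to 95 differences, 81 to 354 luminal effects, 67 to 212 basal effects and 219 to 978 in the other pair. The lowest count of 9 came without any parous replicate 1, and the highest of 95 without any nulliparous replicate 1. No variance trend, quantile normalization, leaving out dim genes and the mean of probe sets gave 56 to 64 differences. The causes of these shifts were not tested.

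Replicate numbers were not taken as pairs in the main fit, because the labels name no pairs and some same-number correlations were low. All 12 samples correlated best with their own number, so shared mice remain possible. With the replicate number as a block, 82 differences, 322 luminal effects, 282 basal effects and 893 differences in the other pair passed. With history and replicate number together as a block, 95 and 904 passed, in the compared groups alone 26 and 25, and as a random block 87 and 785. Of the values of named genes under an alternative, 1569 stayed on their side of the threshold, 330 lost the call and 11 gained it. Of the list medians, 208 moved by less than the spread between replicates and 14 by more. Arrays number 3 per group, which limits what could pass, and signal over background is not in the deposited values.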
